A study of Mus musculus with 6 samples.

Results

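Transcripts of the Ras to ERK kinase cascade were examined in primary hippocampal cultures from mice that were wild type (WT) or lacked *Fmr1* (*Fmr1* KO). The genes were 7 taken by symbol from the deposited expression table of 47086 loci: the small GTPase genes Hras and Nras, the Raf kinase genes Araf and Braf, the MEK genes Map2k1 and Map2k2, and the ERK1 gene Mapk3. Each of the 7 symbols had 1 locus, and all 7 were found. Cultures of C57BL/6 strain were harvested after 14 days in vitro and total RNA was sequenced, with 3 WT libraries and 3 *Fmr1* KO libraries and no drug treatment in either group. According to the methods, cultures were made from newborn pups, and KO mice came from heterozygous mothers. The sources used here do not tie a library to a litter or a culture, so the p-values measure the spread between these libraries, which may be technical in part.

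Ras proteins are membrane-anchored switches that are active when bound to GTP. Active Ras recruits Raf kinases, Raf phosphorylates MEK, and MEK phosphorylates ERK, which acts on translation regulators, ion channels and transcription factors. In neurons the cascade follows glutamate and neurotrophin receptors and is known for its part in synaptic plasticity and in protein synthesis at synapses. Signalling through it is carried by phosphorylation, which RNA sequencing does not measure; the values given here are transcript levels.

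Members of a tier are close in sequence, which bears on how far reads can tell them apart. The short stretches below were chosen for their function, and identity over the whole coding sequence is given for each pair. The coding ends of Hras and Nras are shown because this hypervariable end is where the Ras proteins differ most and where lipid anchors are attached; each stretch is the last 20 codons before the stop, with the 4 codons of the CAAX box, the farnesylation signal, in capitals (GENCODE M21 transcripts, GRCm38; Hras from chr7:141191351-141191410 on the minus strand and Nras from chr3:103063387-103063446 on the plus strand, both within 1 coding exon).
Hras: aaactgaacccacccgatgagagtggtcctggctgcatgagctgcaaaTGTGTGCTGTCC
Nras: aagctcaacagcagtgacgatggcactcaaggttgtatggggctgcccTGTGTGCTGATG

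These ends differed at 29 of 60 bases. Over the whole coding sequence, 570 bases in both, Hras and Nras were 75.9% identical, and the longest identical run between the 2 transcripts was 23 bases.

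The MEK genes were closer. The activation segment is shown because it holds the 2 serines that Raf phosphorylates, with their codons in capitals (Map2k1 from chr9:64193708-64193755, minus strand; Map2k2 from chr10:81119328-81119375, plus strand; each within 1 coding exon).
Map2k1: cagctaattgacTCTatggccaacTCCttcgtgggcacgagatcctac
Map2k2: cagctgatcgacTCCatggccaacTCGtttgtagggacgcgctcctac

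Here 39 of 48 bases were the same. The coding sequences were 78.4% identical. The longest identical run between the 2 transcripts was 56 bases, so a short read within such a run could come from either gene. The read length is not given in the sources used here. For Araf and Braf the identity of coding sequence was 67.8%, and the longest identical run between the transcripts was 17 bases. Mapk3 is shown by the loop that carries the threonine and tyrosine phosphorylated by MEK, with the Thr-Glu-Tyr codons in capitals (chr7:126763434-126763481, plus strand, 1 coding exon).
Mapk3: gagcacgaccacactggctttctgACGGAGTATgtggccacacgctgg

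Values are FPKM, fragment counts scaled by transcript length and by the size of the library, as the authors calculated them; a number after ± is the SD over the 3 libraries of a genotype (n = 3). How libraries were scaled to each other is not stated. Depth is unknown, so precision is judged from the spread of 3 libraries. The 13195 loci with a mean of at least 1 FPKM in either genotype were compared as log2(FPKM + 0.1) with limma and Benjamini-Hochberg adjustment, and a log2 change is *Fmr1* KO minus WT on that scale. The FPKM sum of a library ran from 1803679 to 2303083, of which the small noncoding RNA Bc1 took 73.7 to 80.6%, and the correlation between libraries over tested loci (Pearson's r, across loci that are not independent) was 0.962 to 0.978. The targeted gene, *Fmr1*, was listed at 18.99, 19.5 and 19.7 FPKM in WT against at 23.1, 21.8 and 18.5 in *Fmr1* KO (limma adjusted p = 0.536), so its FPKM over the whole gene does not check the genotype labels. The labels call the cells hippocampal neurons. The 6 markers shared by neurons summed to 1260 to 1360 FPKM over the libraries and the 8 astrocyte markers to 1710 to 2010 FPKM, so astrocyte transcripts were abundant in these cultures. In bulk RNA, fewer cells of a type and less RNA per cell cannot be told apart.

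None of the 7 genes passed an adjusted p of 0.05 in limma, against 35 of the 13195 tested loci (0.265%). At an unadjusted p below 0.05, Map2k1 was lower and Nras was higher in *Fmr1* KO, 2 of 7 genes, where 14.8% of all tested loci were below this value (6.99% higher and 7.77% lower). WT and *Fmr1* KO libraries were separated for 1 gene, Nras, which was higher, and for 21.1% of all tested loci (10.8% higher and 10.3% lower). With 1 library left out the count of 2 genes below an unadjusted p of 0.05 in limma moved. It was 0 without WT replicate 2, *Fmr1* KO replicate 2 or *Fmr1* KO replicate 3. It was 1 without WT replicate 3 or *Fmr1* KO replicate 1, and 3 without WT replicate 1. The count over all tested loci moved too, from 1947 of 13195. It was 1330 of 13203 without *Fmr1* KO replicate 2 and 1392 of 13211 without *Fmr1* KO replicate 3. Without any other library it was 1741 to 1950. Of the 7 log2 changes, 6 were above 0, where 51.7% of all tested loci were. With the FPKM as listed, the median of the 7 was 0.04, against 0.005 over all tested loci. With the FPKM sum without Bc1 made equal between libraries, 4 of 7 were above 0, and the median over all tested loci was -0.0262. With 1 library left out, 5 of 7 were above 0 without any of the WT libraries. It was 4 of 7 without *Fmr1* KO replicate 1 and 6 of 7 without *Fmr1* KO replicate 2 or 3.

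**Figure D1:**
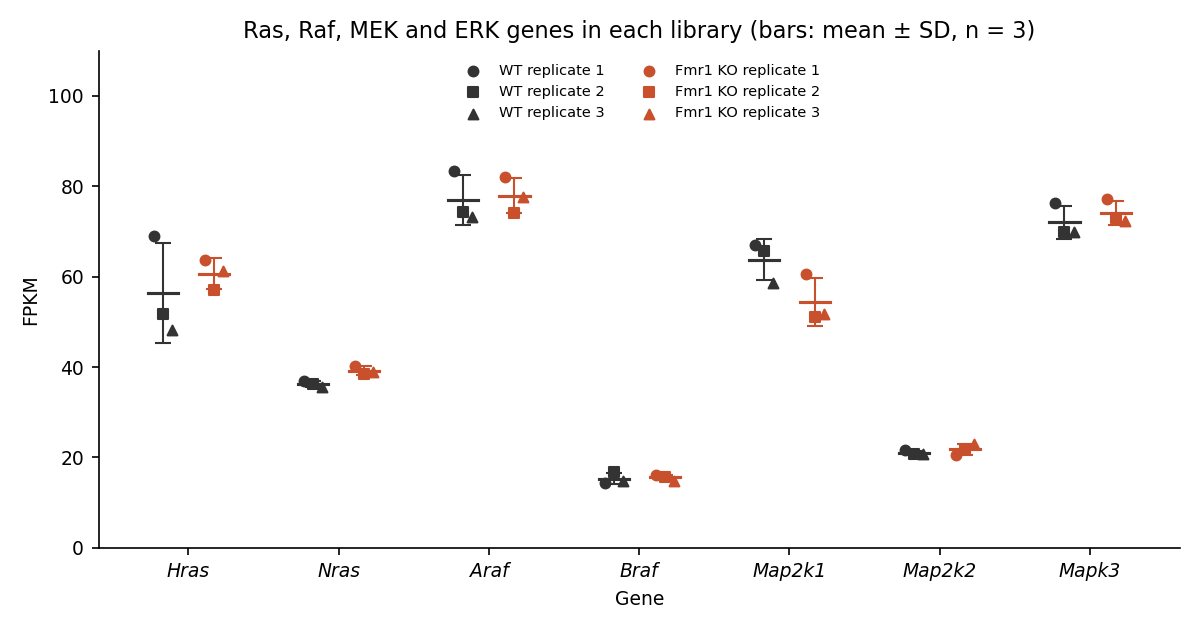
FPKM (linear axis from 0) of the 7 genes in each of the 3 WT libraries (black) and 3 Fmr1 KO libraries (orange), with the mean and SD of each genotype; the marker shape gives the replicate. Map2k1 runs from 58.7 to 67.0 in WT against from 51.1 to 60.5 in Fmr1 KO, and Nras is the gene whose genotypes do not overlap.

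Hras, which encodes the Ras protein that is anchored by a farnesyl group and palmitates and is abundant in brain, lies on chromosome 7 (141189105 to 141194005, minus strand). It had 69.0, 51.7 and 48.3 FPKM in WT replicates 1, 2 and 3 and 63.8, 57.1 and 61.2 in *Fmr1* KO replicates 1, 2 and 3. All *Fmr1* KO values lay inside the WT range, and WT replicate 1 stood above every other library. The log2 difference was 0.12 (standard error 0.12, 95% confidence interval -0.15 to 0.39, adjusted p = 0.676 in limma), in percent an interval of -9.63 to 31.4%. Within WT the coefficient of variation was 19.7%, the highest of the 7 genes, where the median tested locus had 6.72%. Without WT replicate 1 the log2 difference of Hras was 0.28 (adjusted p = 0.114 in limma), and without WT replicate 3 it was 0.02.

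Nras lies on chromosome 3 (103058285 to 103067914, plus strand), and its product cycles between the Golgi and the plasma membrane with 1 palmitate. Its FPKM was 36.9, 36.3 and 35.6 in WT against 40.3, 38.5 and 38.8 in *Fmr1* KO. Every *Fmr1* KO library was above every WT library, and the coefficient of variation was low in both genotypes, at 1.74 and 2.56%. The log2 difference was 0.11 (standard error 0.05, 95% confidence interval 0.01 to 0.22, unadjusted p = 0.0398 and adjusted p = 0.313 in limma), or 7.99% higher. This difference did not pass the adjustment over all tested loci.

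The ratio of Hras to Nras was 1.87, 1.42 and 1.36 in WT against 1.58, 1.48 and 1.58 in *Fmr1* KO, a difference of 0.013 on the log2 scale (exact two-sided permutation test over the 6 libraries, p = 1).

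Araf was the most abundant of the 7 genes. It lies on the X chromosome (20797814 to 20860519, plus strand), as *Fmr1* does, and encodes the Raf kinase with the weakest basal activity toward MEK. Its FPKM was 83.3, 74.4 and 73.1 in WT against 82.0, 74.2 and 77.6 in *Fmr1* KO. The genotypes overlapped, with a log2 difference of 0.02 (standard error 0.06, 95% confidence interval -0.12 to 0.16, adjusted p = 0.928 in limma), or -8.26 to 12%. The gene overlaps Syn1, which codes for the synaptic vesicle protein synapsin I, and the deposited locus of Araf spans Syn1 and Timp1 as well. Syn1 had 116 ± 3.15 FPKM in WT, and its log2 difference was 0.04. Timp1, an inhibitor of metalloproteinases, had 1.79 ± 0.330 FPKM in WT and 0.972 ± 0.430 in *Fmr1* KO, with separated libraries and a log2 difference of -0.90 (adjusted p = 0.259 in limma). Whether reads were counted by strand is not given, so the split of reads between Araf and its neighbours is uncertain.

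Braf, on chromosome 6 (39603237 to 39725463, minus strand), codes for the Raf kinase with the strongest activity toward MEK. It was the least abundant of the 7 genes, with 14.3, 16.8 and 14.9 FPKM in WT against 16.1, 15.7 and 14.9 in *Fmr1* KO. The *Fmr1* KO libraries lay inside the WT range. The log2 difference was 0.02 (standard error 0.07, 95% confidence interval -0.14 to 0.19, adjusted p = 0.925 in limma), or -9.28 to 13.7%. In GENCODE M21, Braf overlaps Ndufb2, a gene of respiratory complex I with 131 ± 7.34 FPKM in WT against 140 ± 3.34 in *Fmr1* KO. The deposited loci of the 2 genes do not overlap (39592549 to 39599472 for Ndufb2 and 39603230 to 39725660 for Braf). Whether reads were shared between them is not given.

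The ratio of Araf to Braf was 5.83, 4.43 and 4.91 in WT against 5.10, 4.74 and 5.21 in *Fmr1* KO. It differed by -0.003 on the log2 scale (exact two-sided permutation test, p = 1), and the libraries of *Fmr1* KO lay within the WT range.

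Map2k1, the MEK1 gene, had the largest difference of the 7 genes with all libraries used. Without WT replicate 1 that of Hras was larger, with a log2 difference of 0.279 against -0.195 for Map2k1. Map2k1 lies on chromosome 9 (64185770 to 64253631, minus strand). Its FPKM was 67.0, 65.7 and 58.7 in WT against 60.5, 51.1 and 51.7 in *Fmr1* KO. The genotypes overlapped by 1 library on each side: *Fmr1* KO replicate 1 was above WT replicate 3, and the other 2 *Fmr1* KO libraries were below all WT libraries. The log2 difference was -0.23 (standard error 0.08, 95% confidence interval -0.41 to -0.05, unadjusted p = 0.0165 and adjusted p = 0.236 in limma), a difference of -14.8% with an interval of -24.7 to -3.66%. The difference was in the direction of a decrease with each library left out in turn, from -0.31 without *Fmr1* KO replicate 1 to -0.19 without *Fmr1* KO replicate 2. The ubiquitin hydrolase gene Uchl4 lies within the Map2k1 gene and had 2.06 ± 0.545 FPKM in WT against 2.17 ± 0.412 in *Fmr1* KO.

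Map2k2, the MEK2 gene on chromosome 10 (81105915 to 81133975, plus strand), codes for the second kinase that phosphorylates ERK. It had 21.6, 20.8 and 20.8 FPKM in WT against 20.5, 21.9 and 22.9 in *Fmr1* KO. The genotypes overlapped, and the log2 difference was 0.04 (standard error 0.06, 95% confidence interval -0.09 to 0.17, adjusted p = 0.782 in limma), or -5.89 to 12.7%. It was 0.00449 without *Fmr1* KO replicate 3 and 0.0841 without *Fmr1* KO replicate 1. Map2k1 was the more abundant MEK transcript in every library. The ratio of Map2k1 to Map2k2 was 3.10, 3.15 and 2.82 in WT against 2.95, 2.34 and 2.26 in *Fmr1* KO. This ratio does not depend on how a library was scaled. It was lower in *Fmr1* KO by 0.275 on the log2 scale, with *Fmr1* KO replicate 1 inside the WT range (exact two-sided permutation test, p = 0.2, and 0.4 after Benjamini-Hochberg adjustment over 4 ratios; with 3 libraries a side this test cannot go below 0.1). A difference in change between the MEK genes was therefore not shown at this number of libraries. The summed FPKM of both MEK genes was 84.9 ± 4.76 in WT against 76.2 ± 4.26 in *Fmr1* KO.

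Mapk3, on chromosome 7 (126759601 to 126765819, plus strand), is the last step of the cascade among the 7 genes. Its FPKM was 76.2, 70.0 and 69.9 in WT against 77.2, 73.0 and 72.3 in *Fmr1* KO. The genotypes overlapped, with replicate 1 highest in both. The log2 difference was 0.04 (standard error 0.05, 95% confidence interval -0.08 to 0.16, adjusted p = 0.76 in limma), or -5.21 to 11.9%. It was 0.0132 without *Fmr1* KO replicate 1 and 0.0831 without WT replicate 1.

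The ratio of Mapk3 to Map2k1 was 1.14, 1.07 and 1.19 in WT against 1.28, 1.43 and 1.40 in *Fmr1* KO. All 3 *Fmr1* KO libraries were above the 3 WT libraries. The means differed by 0.275 on the log2 scale (exact two-sided permutation test, p = 0.1, the smallest p this design allows, and 0.4 after adjustment over the 4 ratios). In the plot of the ratios the 2 pairs without Map2k1 show no such shift.

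**Figure D2:**
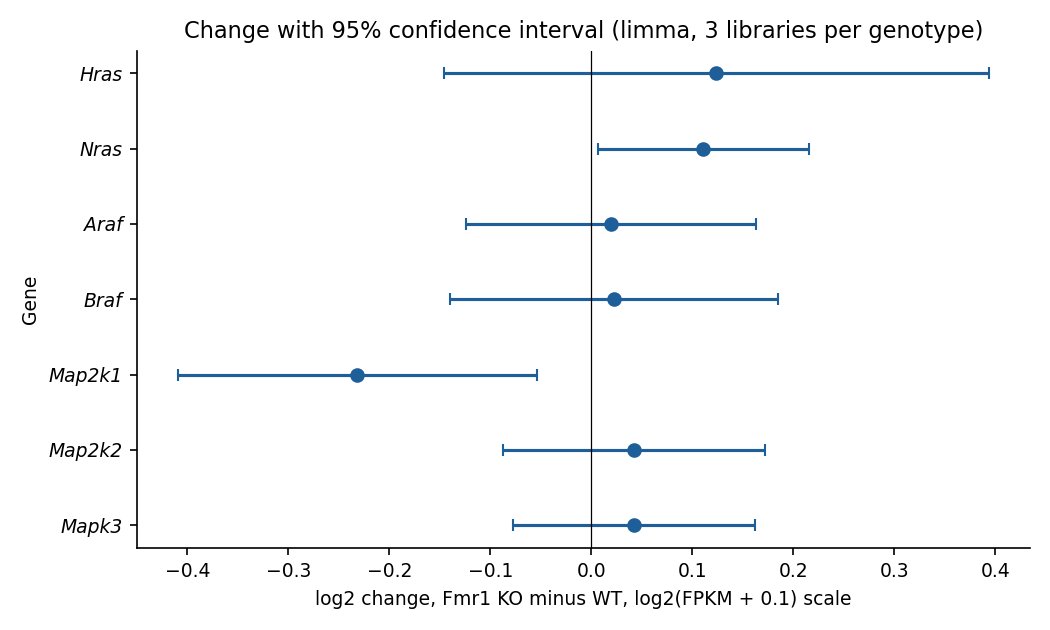
log2 change (Fmr1 KO minus WT) with its 95% confidence interval from limma for the 7 genes. The intervals of Map2k1 (-0.41 to -0.05) and Nras (0.01 to 0.22) leave out 0 before adjustment, and Hras has the widest interval.

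**Figure D3:**
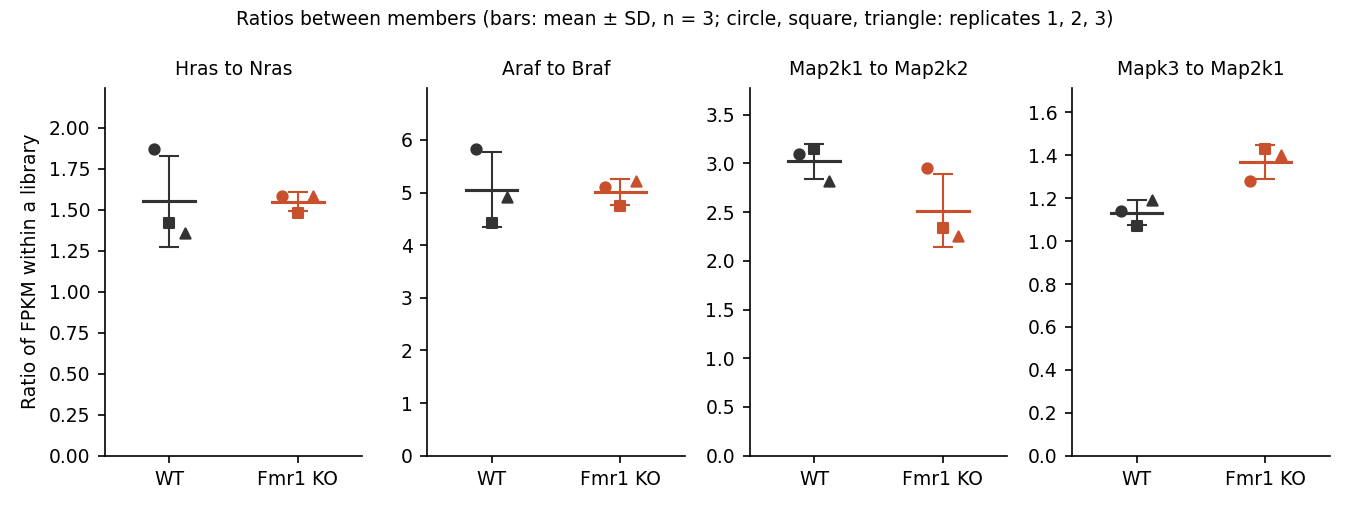
Ratio of FPKM within each library for 4 pairs of genes, on linear axes from 0, with the mean and SD of 3 libraries per genotype. The ratio of Mapk3 to Map2k1 is 1.07 to 1.19 in WT against 1.28 to 1.43 in Fmr1 KO, while the other 3 ratios overlap between genotypes.

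Because FPKM is per length, the levels of the 7 genes can be set side by side. The order is limited by the uncertain split of reads between Araf and its neighbours and by the sequence that the MEK genes share. Over the 6 libraries the mean FPKM followed the order Araf (77.4), Mapk3 (73.1), Map2k1 (59.1), Hras (58.5), Nras (37.7), Map2k2 (21.4) and Braf (15.5). Araf and Mapk3 overlapped within both genotypes, as did Map2k1 and Hras. Every other pair of neighbours in this order was separated in both genotypes. Map2k1 had the higher mean of the second pair in WT (63.8 against 56.3 FPKM) and Hras in *Fmr1* KO (60.7 against 54.4 FPKM). Araf stood at percentile 94.1 of the mean level of the tested loci and Braf at percentile 63.3.

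In 5 of the 7 genes, Hras, Nras, Araf, Map2k1 and Mapk3, replicate 1 was the highest library of WT and also the highest of *Fmr1* KO, which held for 19.4% of all tested loci. In Hras, WT replicate 1 was 0.31 above the mean of its genotype on the log2 scale, and in Map2k1, *Fmr1* KO replicate 1 was 0.16 above. The exceptions were Braf, where replicate 1 was lowest in WT against highest in *Fmr1* KO, and Map2k2, where it was highest in WT against lowest in *Fmr1* KO. Over all tested loci, the deviations of the replicate 1 libraries from the means of their genotypes correlated at r = 0.24 (Pearson's r across loci, which are not independent). The pattern was noticed in the data, and what the number 1 libraries share is not given.

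**Figure D4:**
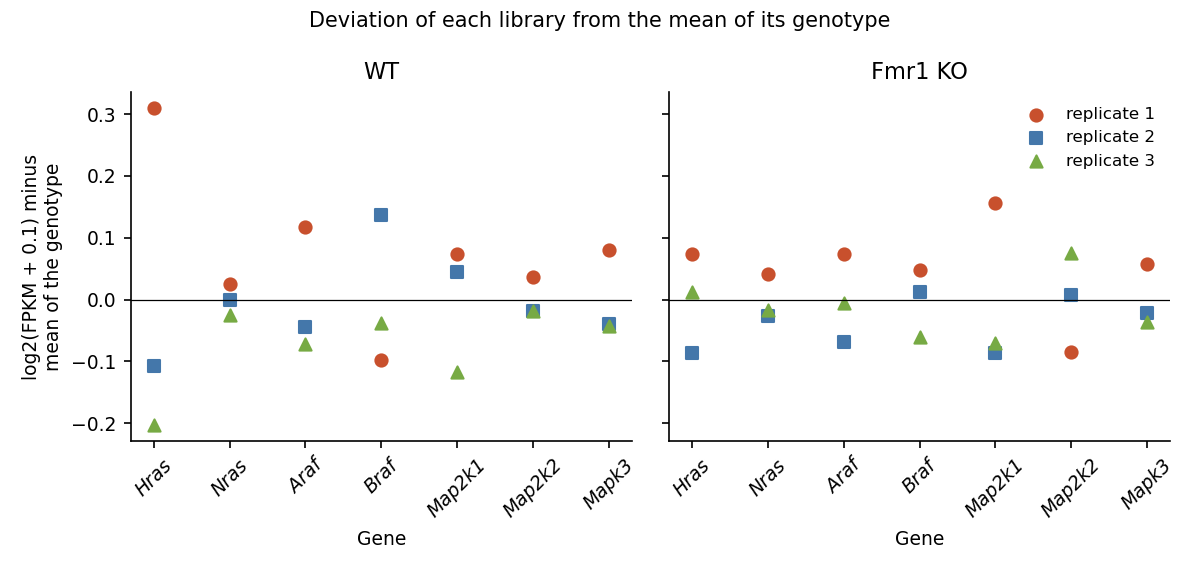
Deviation of each library from the mean of its genotype, on the log2(FPKM + 0.1) scale, for the 7 genes in WT (left) and Fmr1 KO (right). Replicate 1 is the top point in both panels for Hras, Nras, Araf, Map2k1 and Mapk3, and the WT deviation of Hras (0.31) is the largest.

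The likeness of patterns was described by the root mean square difference of log2 values after centring each gene over the 6 libraries, among the 136 other genes of the cascade and its listed partners. The nearest gene to Map2k1 was Rit2 (0.052), a Ras-related GTPase of neurons. The nearest to Nras was Map2k4 (0.034), to Araf was Rap1a (0.025), to Braf was Sos1 (0.033), to Map2k2 was Ksr1 (0.039) and to Mapk3 was Lypla1 (0.028). The nearest to Hras was Ppp1cc (0.091), where Hras itself varied by 0.176 around its mean over the 6 libraries, more than the other 6 genes (0.0539 to 0.152).

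The partners of the cascade were listed by role, 146 genes in all, of which 130 were tested. None passed an adjusted p of 0.05 in limma. An unadjusted p below 0.05 was found for 8 genes above 0 and 12 below 0, which is 20 of 130 against 14.8% of all tested loci. Their median log2 difference was -0.02. Of the 16 genes that were not tested, 12 were under 1 FPKM in both genotypes. The other 4 (Ets2, Mapk13, Ppp1ca and Rasgrp2) were listed at 0 in every library at both of their loci, 1 of which lies on a scaffold outside the chromosomes. Ppp1ca codes for a protein phosphatase that most cells use, so a listed 0 here need not mean that the transcript was absent.

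Upstream of Ras, adaptors and exchange factors load Ras with GTP. Of 16 tested, none was higher and 1 was lower with unadjusted p under 0.05 (6.99% higher and 7.77% lower over all tested loci). That gene was Rasgrp1, a calcium- and diacylglycerol-responsive exchange factor, with 23.7, 27.1 and 23.0 FPKM in WT against 22.3, 19.7 and 17.8 in *Fmr1* KO. All its *Fmr1* KO libraries were below WT, with a log2 difference of -0.30 (standard error 0.09, adjusted p = 0.201 in limma). Rasgrf1, an exchange factor coupled to NMDA receptors, had 44.7 ± 1.995 FPKM in WT against 41.8 ± 2.17 in *Fmr1* KO, and Sos1, the exchange factor bound to Grb2, had 10.7 ± 0.743 and 10.5 ± 0.358. The highest ranked of the genes above 0 was Shc2, an adaptor, with a log2 difference of 0.13 (adjusted p = 0.376 in limma).

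The proteins that return Ras to its GDP-bound state, with the Spred and Sprouty inhibitors, had 14 tested genes. With unadjusted p under 0.05, 1 was higher and none was lower (6.99% higher and 7.77% lower over all tested loci). Rasa3, a GTPase-activating protein, had a log2 difference of 0.17 (standard error 0.07, adjusted p = 0.28 in limma), and Spred1, the partner of neurofibromin, one of -0.11 (standard error 0.06, adjusted p = 0.413). Without WT replicate 1 the value of Rasa3 was 0.108, and without WT replicate 3 that of Spred1 was -0.065. Nf1, the neurofibromin gene, had 19.9 ± 1.76 FPKM in WT against 21.3 ± 1.15 in *Fmr1* KO, and Spry2 26.9 ± 0.667 and 26.5 ± 0.810. The genotypes overlapped in both of these genes.

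Ras-related GTPases had 1 of 16 tested genes higher and 4 lower with unadjusted p under 0.05 (6.99% higher and 7.77% lower over all tested loci), with a median log2 difference of -0.06. Rras, a relative of Ras that acts on integrin adhesion, had the lowest adjusted p of all lists, with 12.5 FPKM in WT against 9.52 in *Fmr1* KO as means, a log2 difference of -0.40 (standard error 0.08, adjusted p = 0.092 in limma), and libraries that did not overlap. Rap2c was the 1 higher gene, with a log2 difference of 0.16 (adjusted p = 0.216 in limma). Among the 13 genes for lipid modification and transport of Ras, none was below an unadjusted p of 0.05 (14.8% of all tested loci). Their log2 changes ran from -0.08 to 0.07. Zdhhc9, which encodes the palmitoyltransferase of Hras and Nras, had 17.1 ± 0.624 FPKM in WT against 16.2 ± 0.817 in *Fmr1* KO, and Abhd17b, a depalmitoylase gene, had a log2 difference of 0.07.

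For scaffolds and binding proteins, 18 genes were tested. Of these, 1 was lower and none was higher with unadjusted p under 0.05 (7.77% lower and 6.99% higher over all tested loci). It was Cdc37, the kinase co-chaperone, with a log2 difference of -0.16 (standard error 0.06, adjusted p = 0.256 in limma). Pebp1, the Raf inhibitor RKIP, stood at 150 ± 13.7 FPKM in WT against 148 ± 5.82 in *Fmr1* KO. Shoc2, a scaffold of the phosphatase that activates Raf, had 16.1 ± 0.226 and 15.4 ± 0.554, and Pea15a, which holds ERK in the cytoplasm, had a log2 difference of 0.08.

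ERK phosphatases, which switch ERK off, had 3 of 10 tested genes lower and none higher with unadjusted p under 0.05 (7.77% lower and 6.99% higher over all tested loci), and a median log2 difference of -0.07. Ptpn5, the striatal-enriched phosphatase STEP that acts on ERK and on NMDA receptors, had 39.1, 39.4 and 37.3 FPKM in WT against 34.3, 33.4 and 35.03 in *Fmr1* KO. All *Fmr1* KO libraries of Ptpn5 were below WT, with a log2 difference of -0.17 (standard error 0.05, adjusted p = 0.17 in limma), or 11.2% lower. Dusp4, a nuclear ERK phosphatase, had a log2 difference of -0.30 (standard error 0.09, adjusted p = 0.206 in limma) and Dusp7 of -0.21. Dusp6, the cytoplasmic ERK phosphatase that is itself induced by ERK, had 7.30 ± 0.115 FPKM and 7.38 ± 0.264, and Dusp1 had a log2 difference of 0.03.

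The list downstream of ERK, mostly kinases and transcription factors, had 3 of 15 tested genes higher and none lower with unadjusted p under 0.05. Over all tested loci 6.99% were higher and 7.77% lower, and the median of the list was 0.05. The 3 higher genes were Ets1, with a log2 difference of 0.25 (standard error 0.09, adjusted p = 0.249 in limma), the kinase gene Rps6ka5 (0.24) and Creb1 (0.14). Rps6ka3, the X-linked RSK2 gene, had 10.4 ± 1.08 FPKM in WT against 10.6 ± 0.459 in *Fmr1* KO, and Rps6ka2 had a log2 difference of -0.07.

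Transcripts known to rise with ERK activity were read as a separate list, which shares 6 genes with the lists of inhibitors and phosphatases. Of 20 tested, 1 was higher and 3 were lower with unadjusted p under 0.05 (6.99% higher and 7.77% lower over all tested loci), with a median log2 difference of -0.04. The higher gene was Ccnd1, the cyclin D1 gene (0.19, standard error 0.05, adjusted p = 0.185 in limma). The lower genes were Dusp4, Egr3 (-0.34) and Arc (-0.28), of which Egr3 and Arc are activity-regulated in neurons. Egr1 had 10.4 ± 0.873 FPKM in WT against 11.1 ± 0.785 in *Fmr1* KO, with overlapping libraries.

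The other MAPK and MAPK kinase genes, those of the JNK, p38 and ERK5 pathways and the atypical kinases Mapk4, Mapk6 and Mapk15, were listed as like enzymes. Of 15 tested, 2 were higher and 1 was lower with unadjusted p under 0.05 (6.99% higher and 7.77% lower over all tested loci). These were Mapk15 (log2 change 0.61, standard error 0.20, adjusted p = 0.23 in limma), Mapk7, the ERK5 gene (0.18, adjusted p = 0.234), and Mapk12 (-0.53, standard error 0.20, adjusted p = 0.286). Mapk12 and Mapk15 were near 1 FPKM, and with a pseudocount of 1 their log2 differences were -0.27 and 0.38.

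**Figure D5:**
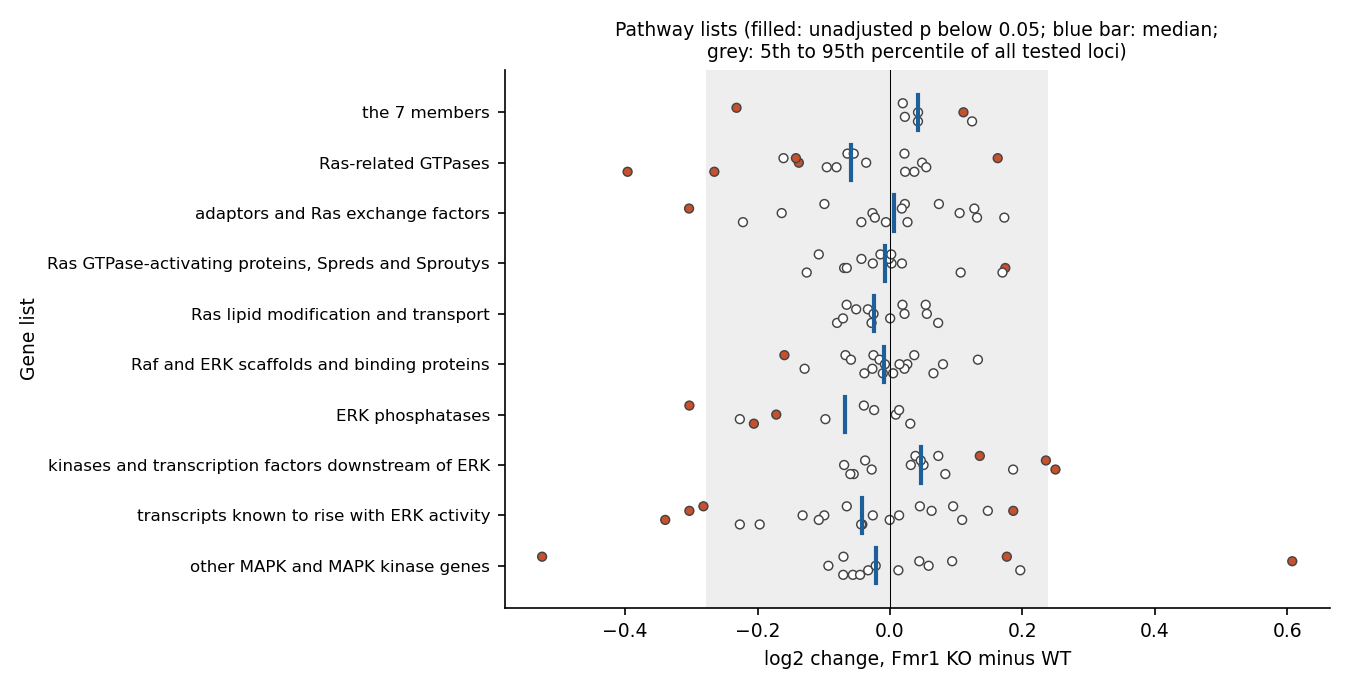
log2 change (Fmr1 KO minus WT) of each tested gene of the 7 members and of each list of cascade partners; filled points have an unadjusted p below 0.05, blue bars are medians, and the grey band is the 5th to 95th percentile of all tested loci (-0.28 to 0.24). Most genes lie inside the band, and no list median is farther from 0 than 0.07.

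Summed markers of some other cell types and states were separated between the genotypes. Of single tested loci, 21.1% were separated in this way, and the sums themselves were not tested. The 11 microglia markers summed to 5.74 to 7.91 FPKM in WT against 1.29 to 3.63 in *Fmr1* KO, with Aif1 and Tmem119 listed at 0 in all libraries. The 8 fibroblast and mural markers summed to 47.7 to 52.3 and 39.1 to 47.1 FPKM, and the 7 endothelial markers to 2.98 to 3.39 and 2.17 to 2.72, with Cldn5 listed at 0. Only 3 of the 11 microglia markers, 4 of the 8 fibroblast and mural and 1 of the 7 endothelial were tested. The others of these lists were under 1 FPKM in both genotypes. Among the tested markers the median log2 difference was -2.03 for microglia, -0.14 for fibroblast and mural and -0.003 for endothelial. The 6 proliferation markers summed to 33.2 to 39.0 FPKM in WT against 39.4 to 44.4 in *Fmr1* KO. The sums of the neuron, astrocyte, excitatory, inhibitory, oligodendrocyte lineage and choroid plexus lists overlapped between the genotypes, and no marker passed an adjusted p of 0.05 in limma. The part of these differences in the values of Map2k1, Nras, Rras or Rasgrp1 was not tested.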

How the data were processed

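RNA-seq was done on total RNA from DIV 14 hippocampal cultures, 3 WT and 3 *Fmr1* KO libraries, grouped by the sample labels. The authors clipped adapters, trimmed with sickle, removed junk sequence, aligned to GRCm38 by TopHat2 and used Cufflinks and Cuffdiff for assembly and comparison; versions, annotation and library scaling are not stated in what was read here. The deposited values are FPKM per library, which are not counts, together with group FPKM and Cuffdiff fold changes, p-values and q-values, which were not used. The differentially expressed genes listed in the paper include Map2k1, Rras, Rasgrp1, Dusp4, Dusp7, Mapk12, Ets1, Rps6ka5 and Ccnd1. That list rests on Cuffdiff and a P below 0.05, whereas the counts here rest on limma and an adjusted p. Of 48100 rows, 47086 loci were kept once each, and a symbol with several loci was read at the one with the highest mean FPKM.

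Loci with a mean of at least 1 FPKM in either genotype were tested on log2(FPKM + 0.1) in limma 3.58.1 (R 4.3.3) by genotype alone, with the variance prior following mean level and Benjamini-Hochberg adjusted p-values; the procedure was tested on simulated data. Ratios within a library were compared by exact permutation tests. The alternatives tried were 2 other pseudocounts (1 and 0.01), dropping the FPKM minimum or raising it to 5, centring, rescaling without Bc1, no trend, a replicate block, summed loci and each library left out. Named genes were the 7 genes, *Fmr1*, a roster of 12 regulators and, in each list, the genes with the lowest p in each direction; Rps6ka5, Creb1, Dusp7, Mapk7, Arc and Egr3 were named after their values were seen. The members and lists were chosen with earlier results of these data known. Some related genes are not reported here. Gene bounds and coding sequences are from GENCODE M21 (GRCm38).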

Additional observations from a re-analysis of the deposited data

How the results depend on the processing

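No member passed a limma adjusted p of 0.05 under any alternative, and none of the tested partners did (lowest adjusted p 0.0722, with a minimum of 5 FPKM). The number of tested loci past this threshold was 35; it was 15 without an FPKM minimum, 54 with a minimum of 5, 88 with the FPKM sum without Bc1 made equal, 21 without the trend, and 14 to 20 with each library left out. With the replicate number as a block it was 65, and Map2k1 had an adjusted p of 0.0921; the deviations of same-numbered libraries correlated at 0.24, 0.06 and 0.08, so the numbers were not taken as pairs, and not every library correlated best with its own number. Small changes reversed: with the sum without Bc1 made equal, the log2 change was -0.012 for Araf, -0.0086 for Braf, -0.017 for Dusp6 and -0.00033 for Dusp1. With each library left out it ran from -0.018 to 0.078 for Araf, -0.027 to 0.0904 for Braf, -0.015 to 0.029 for Dusp6, -0.023 to 0.077 for Dusp1, -0.052 to 0.064 for Pebp1, -0.043 to 0.11 for Rps6ka3 and -0.063 to 0.029 for Sos1, and the ratio of Hras to Nras from -0.076 to 0.156 and of Araf to Braf from -0.094 to 0.104. Without changing sign, it moved by over 1.5 times for Hras, Map2k2 and Mapk3 as given above, and ran from 0.0138 to 0.134 for Abhd17b, 0.0277 to 0.152 for Egr1, 0.0335 to 0.158 for Nf1, 0.0445 to 0.108 for Pea15a, 0.108 to 0.228 for Rasa3, -0.136 to -0.061 for Rasgrf1, -0.131 to -0.0102 for Rps6ka2, 0.0819 to 0.151 for Shc2, -0.152 to -0.065 for Spred1, -0.0511 to -0.00775 for Spry2, -0.112 to -0.0402 for Zdhhc9 and 0.0509 to 0.21 for *Fmr1*. The cause was not tested. Map2k1 was below 0 and Nras above 0 under every alternative, at an unadjusted p below 0.05 in 10 and 7 of the 14 that read single loci. With the FPKM sum without Bc1 made equal, both had an unadjusted p above it. Without read counts, the share of the spread that comes from sequencing depth cannot be given.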
